A study of Mus musculus with 6 samples.

Results

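Hemoglobin and heme genes were examined in whole livers of ethanol-fed mice that lacked CD44, a cell-surface receptor for hyaluronan, in myeloid cells. The 10 genes were found by matching the Ensembl identifiers of the count table to their symbols, and all 10 of 10 matched, among 54532 genes in the table. They form 2 groups of 5. The red-cell genes are Hba-a1, Hba-a2, Hbb-bs, Hbb-bt and Alas2, and the heme enzymes of hepatocytes and other cells are Alas1, Cpox, Fech, Hmox1 and Blvrb. The knockout (KO) mice were LysMcre/+ Cd44flox/flox, which carry Cre at the lysozyme gene Lyz2 together with both floxed copies of Cd44, and 3 livers were sequenced. The controls were 3 livers of littermates with the genotype LysM+/+ Cd44flox/flox, so both floxed copies were shared and Cre was not. All mice were on the C57BL/6J/Rj strain and drank a Lieber-DeCarli liquid diet with 6% (vol/vol) ethanol for 10 days. They received 5 g/kg ethanol by gavage on day 11 and were killed 9 h later. The labels give no ages. LysM-Cre acts in macrophages, monocytes and neutrophils, and hepatocytes and red-cell precursors lie outside its usual targets. Livers with Cre and no floxed Cd44, and livers of mice without ethanol, were not analysed here.

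Hemoglobin joins a pair of alpha-globin chains and a pair of beta-globin chains, each holding a heme. Circulating mouse red cells have no nucleus, but young ones (reticulocytes) still carry globin messenger RNA, so a whole liver contains the transcripts of the blood in it as well as those of any red-cell precursors. Heme is built in a chain of enzymatic steps that begins and ends in mitochondria. The first is set by Alas2 in red-cell precursors and by Alas1 in other cells, where heme itself lowers Alas1. In hepatocytes most heme goes into cytochrome P450 enzymes. Heme oxygenase opens the heme ring to biliverdin, iron and carbon monoxide, and biliverdin reductase turns biliverdin into bilirubin. Macrophages of spleen and liver (Kupffer cells) clear heme from old red cells.

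The adult globin genes come as near-identical pairs, and the sequences below show how little separates their reads. Each coding sequence of a pair differed from the other by 1 base (99.77% identity in the GENCODE M21 transcripts), over 429 coding bases for the alpha pair and 444 for the beta pair. From 1 at the A of the start codon, the differences were C381T (Hba-a1 to Hba-a2) and C417T (Hbb-bs to Hbb-bt). The 60 bases around each are printed with the differing base in capitals, for coding bases 351 to 410 of the alpha pair and 385 to 444 of the beta pair.
Hba-a1: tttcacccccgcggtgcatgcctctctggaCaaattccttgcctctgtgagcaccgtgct
Hba-a2: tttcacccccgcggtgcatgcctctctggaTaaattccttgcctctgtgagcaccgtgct
Hbb-bs: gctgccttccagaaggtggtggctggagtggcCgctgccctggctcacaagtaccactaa
Hbb-bt: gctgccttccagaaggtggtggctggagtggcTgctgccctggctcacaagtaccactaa

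Of all 100-base windows along a transcript, 56.5% of Hba-a1, 74.5% of Hba-a2, 62.6% of Hbb-bs and 54.8% of Hbb-bt occurred letter for letter in the other copy. Within the coding sequence the shares were 85.2% for the alpha pair and 91.9% for the beta pair. How reads that fit both copies were counted is not stated in the labels, so the split within each pair is uncertain, and pair sums are given beside the single genes.

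The promoters of 4 red-cell genes are printed because the red-cell genes moved together in these livers. Each run is the 215 bases before the start site in RefSeq (GRCm38.p6), 5′ to 3′ on the gene's own strand, and capitals mark matches to 4 motifs on either strand. The letters searched were GATAA, the core bound by GATA factors such as GATA1, then CCNCNCCC, the kind of CACC box bound by KLF1, then CCAAT, the CCAAT box, and last TATAA, the core of the TATA box.
Hba-a1, chr11:32283457-32283671, + strand: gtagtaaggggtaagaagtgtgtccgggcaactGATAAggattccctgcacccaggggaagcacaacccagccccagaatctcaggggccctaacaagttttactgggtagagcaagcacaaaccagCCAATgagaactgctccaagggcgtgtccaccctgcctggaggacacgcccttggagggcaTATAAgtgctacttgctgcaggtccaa
Hbb-bs, chr7:103827929-103828143, − strand: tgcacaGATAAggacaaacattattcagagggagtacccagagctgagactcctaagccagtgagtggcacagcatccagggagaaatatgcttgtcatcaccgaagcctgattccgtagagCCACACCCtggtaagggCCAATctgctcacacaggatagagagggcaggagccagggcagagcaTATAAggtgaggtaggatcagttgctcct
Hbb-bt, chr7:103813924-103814138, − strand: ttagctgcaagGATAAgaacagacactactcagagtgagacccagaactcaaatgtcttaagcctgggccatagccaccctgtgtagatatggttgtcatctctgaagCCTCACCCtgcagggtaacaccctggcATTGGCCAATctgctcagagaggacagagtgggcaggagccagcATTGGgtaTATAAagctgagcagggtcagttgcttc
Alas2, chrX:150547202-150547416, + strand: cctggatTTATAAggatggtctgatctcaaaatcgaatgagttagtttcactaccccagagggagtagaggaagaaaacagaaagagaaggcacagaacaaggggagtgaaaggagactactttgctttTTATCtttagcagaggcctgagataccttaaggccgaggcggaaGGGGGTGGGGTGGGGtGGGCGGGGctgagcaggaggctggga

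RefSeq promoters were at hand for 8 of the 10 genes (Fech and Hmox1 are named only). In the 250 bases before the start, GATAA occurred in 5 of 5 red-cell genes and in 1 of 3 heme enzyme genes (Cpox), against 22.58% of 32851 promoters of all genes. CCAAT occurred in the 4 globin genes and in 0 of 3 heme enzyme genes, against 33.85% of all promoters. TATAA occurred in 5 of 5 red-cell genes and 0 of 3 heme enzyme genes, against 22.78%. In Alas2 its match lay at the far end, 207 bases before the start, whereas in each of the 4 globin genes a match lay within 30 bases of it. CCNCNCCC occurred in Alas2, Hbb-bs and Hbb-bt and in 2 of 3 heme enzyme genes (Alas1 and Blvrb), against 45.93%. The letters TGACNNNGC, the core of the antioxidant response element, occurred in Hbb-bt and in 0 of 3 heme enzyme genes, against 10.16%. Only presence was counted, overlaps between motifs were allowed, and a match describes the letters of the window.

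Library totals were 21521174 to 24042917 counts in KO livers and 18428224 to 23126828 counts in control livers, and 3 counts were worth 0.119 to 0.148 CPM, counts scaled to library sizes with TMM factors (trimmed mean of M values). Cd44 itself, the deleted gene, was at 2.11, 1.92 and 3.01 CPM in KO livers 1, 2 and 3, against 32.6, 34.8 and 26.4 CPM in control livers 1, 2 and 3 (13.3-fold lower, edgeR adjusted p = 9.07e-05). Albumin took 6.82% to 8.34% of all counts in KO livers and 5.74% to 6.59% in control livers. Every count and call below comes from edgeR's quasi-likelihood test with Benjamini-Hochberg adjustment over 14758 tested genes. The threshold was an adjusted p under 0.05, log2 values are KO relative to control, and means are ± SD with n = 3 livers per group. SE is an approximate standard error of the log2 value, worked back from that value and the edgeR test statistic. P-values measure the spread between these livers, which the labels name as separate mice.

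Among the 10 genes, 6 were higher in KO livers and 0 were lower (unadjusted p under 0.05: 7 higher, 0 lower; DESeq2 and limma-voom: 6 higher, 0 lower). Over all tested genes 25.0% were called, 11.9% higher and 13.1% lower. In 7 of the 10 genes every KO liver lay above every control liver, as in 21.4% of all tested genes. The median log2 value of the 10 genes was 0.95, and that of all tested genes was −0.01. The red-cell genes held 5 of the 6 calls, and Cpox was the sixth.

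Alpha-globin transcripts were about 2-fold more abundant in KO livers. Hba-a1 (ENSMUSG00000069919, chr11:32283511-32284465, + strand, GRCm38) had 61.9, 46.2 and 58.5 CPM in KO livers, against 30.0, 14.4 and 24.6 CPM in control livers. The groups did not overlap, and control liver 2 was the lowest of the 6. The difference was 2.41-fold (log2 1.27, SE 0.25, adjusted p = 0.00836), and it passed with any 1 liver left out. Hba-a2 (ENSMUSG00000069917, chr11:32296489-32297298, + strand) had 10.1, 6.45 and 6.95 CPM in KO livers, against 4.73, 2.66 and 3.22 CPM in control livers. Every KO liver again lay above every control liver, at a lower level than Hba-a1. The difference was 2.20-fold (log2 1.14, SE 0.27, adjusted p = 0.018). It no longer passed without KO liver 1 (adjusted p = 0.0676), control liver 2 (adjusted p = 0.0575) or control liver 3 (adjusted p = 0.0585).

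Beta-globin transcripts were raised to a similar degree. Hbb-bs (ENSMUSG00000052305, chr7:103826534-103828096, − strand) had 72.7, 63.2 and 77.5 CPM in KO livers, against 42.6, 21.4 and 33.0 CPM in control livers. KO livers lay above control livers without overlap, and control liver 2 was again the lowest. The difference was 2.20-fold (log2 1.14, SE 0.23, adjusted p = 0.00917) and passed with any 1 liver left out. Hbb-bt (ENSMUSG00000073940, chr7:103812524-103813996, − strand) had 7.96, 7.36 and 8.97 CPM in KO livers, against 4.61, 1.35 and 4.44 CPM in control livers. The groups did not overlap, but control liver 2 stood well below the other controls. The difference was 2.32-fold (log2 1.21, SE 0.38, adjusted p = 0.0492), just inside the threshold. It passed without control liver 2 (adjusted p = 0.0292) and with no other liver left out (adjusted p 0.0531 to 0.107), and it did not pass when counts were scaled to library totals (adjusted p = 0.0773).

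Alas2, the red-cell form of 5-aminolevulinate synthase, which makes the first heme precursor, moved with the globins. Alas2 (ENSMUSG00000025270, chrX:150547375-150570638, + strand) had 8.82, 7.31 and 9.56 CPM in KO livers, against 4.33, 3.58 and 5.09 CPM in control livers. All KO livers exceeded all control livers, and control liver 2 was the lowest. The difference was 1.97-fold (log2 0.98, SE 0.20, adjusted p = 0.00935), and it passed with any 1 liver left out. Exons of Apex2 and Mir3620 lie on the opposite strand within Alas2, and the labels do not state whether counting used strand, so its level is uncertain to that extent. Apex2 itself had 97, 162 and 105 counts in KO livers, against 130, 177 and 194 counts in control livers, and did not pass (adjusted p = 0.412).

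**Figure D1:**
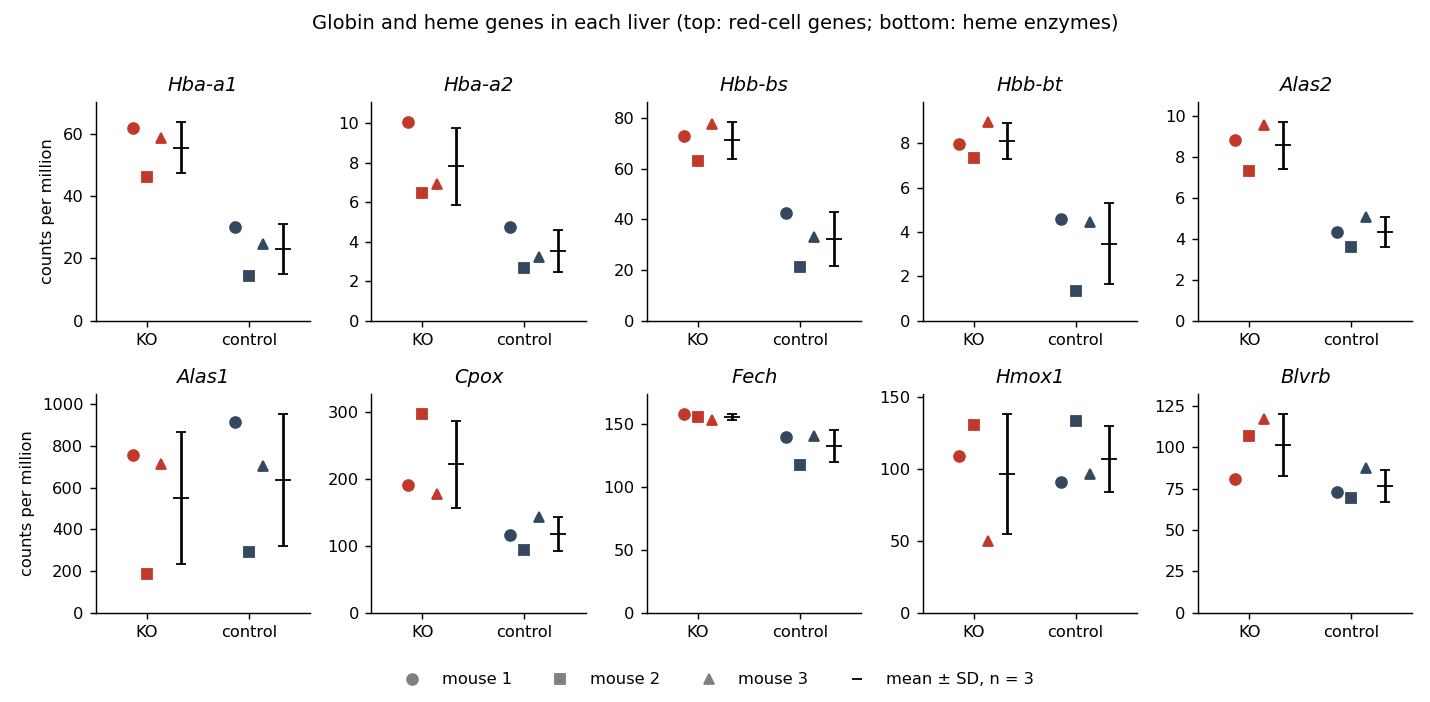
Each panel plots 1 of the 10 genes in CPM for KO livers (left) and control livers (right), with a point per liver (circle, square and triangle for mice 1, 2 and 3) and a bar at the mean ± SD. The 3 KO livers lie above the 3 control livers in all 5 red-cell genes, in Cpox and in Fech, while Alas1 and Hmox1 overlap.

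Sums over the copies do not depend on how reads were split within a pair, though reads dropped for matching both copies would still be missing. The alpha pair had 72.0, 52.7 and 65.5 CPM in KO livers, against 34.7, 17.1 and 27.8 CPM in control livers (2.42-fold, log2 1.28, SE 0.24, adjusted p = 0.00762). The beta pair had 80.7, 70.5 and 86.5 CPM in KO livers, against 47.2, 22.7 and 37.4 CPM in control livers (2.24-fold, log2 1.17, SE 0.24, adjusted p = 0.0097). Both sums separated the groups completely, and both passed under every alternative setting and with any 1 liver left out. The 4 globin genes together reached 143 ± 16.8 CPM in KO livers and 62.3 ± 21.2 CPM in control livers.

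The make-up of the globin transcripts was compared by ratios within each liver, with two-sided exact permutation tests, whose smallest possible p is 0.1 for groups of 3. The alpha to beta ratio was 0.892, 0.747 and 0.757 in KO livers, against 0.736, 0.751 and 0.742 in control livers (log2 difference 0.10, exact permutation p = 0.2). KO liver 1 was the highest and the other 5 livers lay close together. Hba-a1 made up 86.0%, 87.8% and 89.4% of the alpha pair in KO livers, against 86.4%, 84.4% and 88.4% in control livers (log2 difference 0.02, exact permutation p = 0.5). Hbb-bs made up 90.1%, 89.6% and 89.6% of the beta pair in KO livers, against 90.2%, 94.0% and 88.2% in control livers (log2 difference −0.02, exact permutation p = 0.7). Both shares overlapped between the groups, and the sign of the Hbb-bs difference rested on control liver 2, without which it was 0.01.

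For every 100 globin counts there were 5.78, 5.94 and 6.29 Alas2 counts in KO livers, against 5.29, 8.99 and 7.80 in control livers (log2 difference −0.26, exact permutation p = 0.4). The KO livers all lay within the range of the control livers. None of these 4 globin ratios separated the groups, and with 3 livers a group this test could not have passed 0.05.

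**Figure D2:**
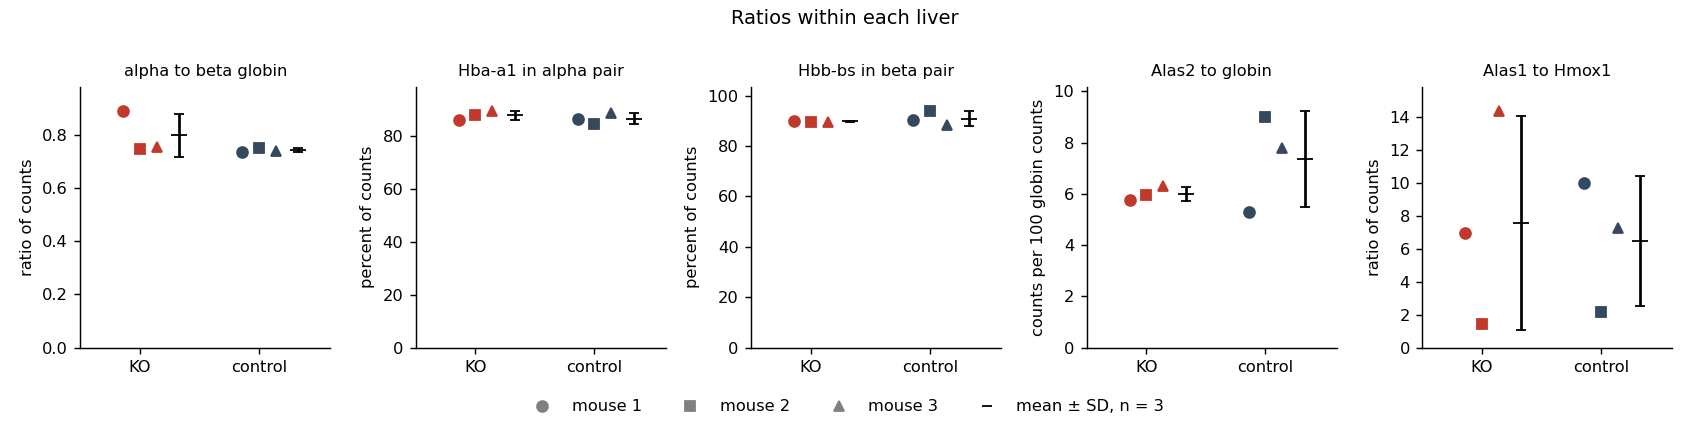
Each panel plots 1 ratio per liver, KO livers left and control livers right, with a bar at the mean ± SD: alpha to beta globin, the Hba-a1 and Hbb-bs shares of their pairs in percent, Alas2 counts per 100 globin counts, and Alas1 to Hmox1. The groups overlap in every panel, and Alas1 to Hmox1 spreads widest, with 1.44 and 14.4 both in KO livers.

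Other genes of red cells gave a mixed picture. Of 20 red-cell markers listed, 19 matched and 9 had enough counts to be tested; 3 were higher in KO livers and 1 was lower, with a median log2 value of 0.30. Klf1, the transcription factor that switches on adult beta-globin, had 3.36, 4.28 and 4.14 CPM in KO livers, against 1.23, 1.35 and 1.70 CPM in control livers (log2 1.46, SE 0.24, adjusted p = 0.00467). The carbonic anhydrase Car2, which red cells share with other cells, was at 12.0 ± 0.271 CPM in KO livers and 5.75 ± 1.20 CPM in control livers (log2 1.06, adjusted p = 0.00499). Car1, a carbonic anhydrase abundant in red cells, was at 1.05, 1.44 and 0.739 CPM in KO livers, against 0.278, 0.145 and 0.130 CPM in control livers (log2 2.49, adjusted p = 0.00706), with 3 counts each in control livers 2 and 3.

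These 3 genes separated the groups as the globins did, while 8 of the 19 matched markers, membrane genes and nuclear factors among them, were at or near 0. Kel had 0 counts in all livers. Slc4a1 (band 3), Epb42, Rhag, Gata1, Hemgn, Trim58 and Ermap had at most 3 counts in any liver, so no difference was detectable in them at this depth. Sptb, spectrin of the red-cell skeleton and of other cells, was detected at 3.38 ± 1.49 CPM in KO livers and 2.74 ± 0.457 CPM in control livers and did not pass (log2 0.30, adjusted p = 0.557). The lower gene was Ank1, ankyrin of the red-cell skeleton, at 0.162 ± 0.0768 CPM in KO livers and 0.509 ± 0.0275 CPM in control livers (log2 −1.62, adjusted p = 0.0356). Ank1 rests on 2 to 5 counts in KO livers and 11 to 13 counts in control livers, and it did not pass with DESeq2 or without any 1 liver other than KO liver 3. The summed level of the 19 markers was 51.0 to 54.1 CPM in KO livers and 37.6 to 50.6 CPM in control livers, so the groups did not overlap but lay close. Bpgm, Car2 and Tspan33 were its largest parts. Their means were 16.8, 12.0 and 11.7 CPM in KO livers and 19.5, 5.75 and 10.5 CPM in control livers. Car2 is shared with other cells, so the sum does not give red-cell content alone. The part of red-cell content in the globin result was not tested, and in bulk liver fewer cells of a type and less RNA per cell cannot be told apart.

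**Figure D3:**
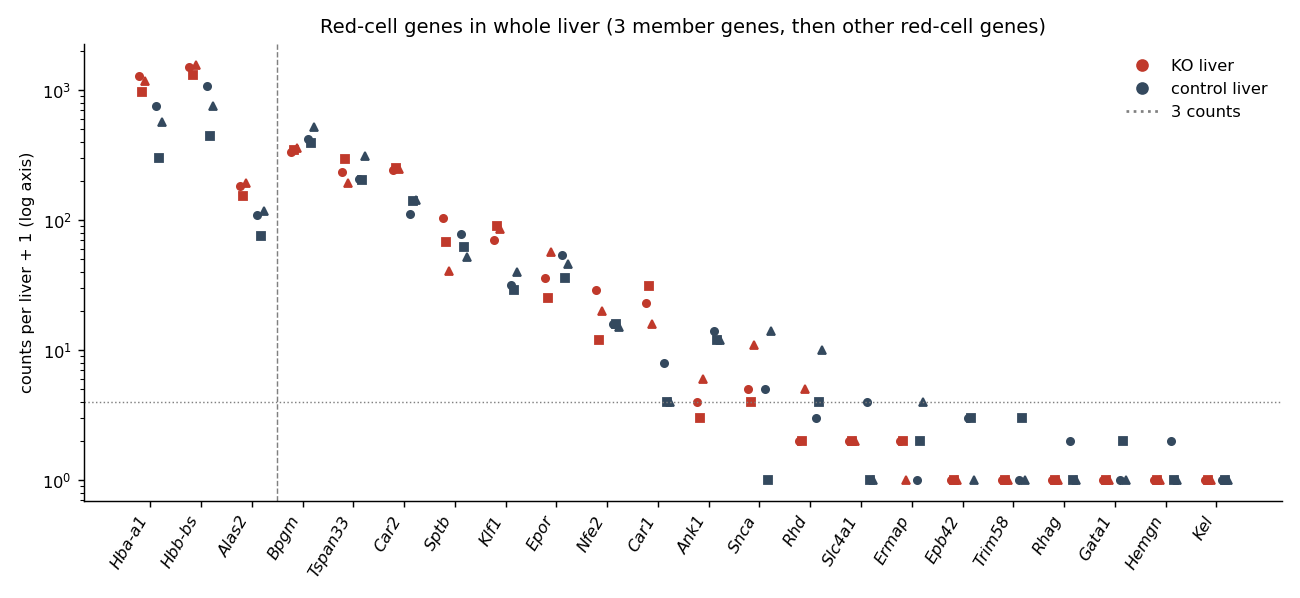
Points show counts per liver plus 1 on a log axis, with KO livers left of control livers for each gene, for 3 of the 10 genes (left of the dashed line) and for the 19 matched red-cell markers, and the dotted line marks 3 counts. Klf1, Car1 and Car2 lie higher in every KO liver, while Ank1 lies lower near the limit of 3 counts.

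Platelet genes come with blood as well. Of 9 listed, 4 were tested, 0 were higher and 2 were lower in KO livers, with a median log2 value of −0.67 and sums of 13.5 to 22.1 CPM in KO livers and 31.8 to 33.0 CPM in control livers. Gp1bb had 0 counts in all livers, Gp9 and Treml1 had at most 3 counts in any liver, and Ppbp had 1 to 5. Clec1b, the podoplanin receptor of platelets, which Kupffer cells also carry, was at 11.7 ± 3.73 CPM in KO livers and 21.4 ± 1.23 CPM in control livers (log2 −0.87, adjusted p = 0.0231). It was the largest part of the platelet sums, so they do not give platelet content alone. Pf4, platelet factor 4, was at 0.699 ± 0.569 CPM in KO livers and 2.79 ± 0.850 CPM in control livers (log2 −2.0, adjusted p = 0.0342). Neither call held without KO liver 1 or without any 1 control liver.

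Of the 10 other globin genes listed, embryonic ones among them, 8 had 0 counts in all 6 livers. They were Hbb-y, Hbb-bh1, Hbb-bh2, Hbb-bh0, Hba-x, Hbq1a, Hbq1b and the muscle globin Mb. Cygb, cytoglobin of hepatic stellate cells, was at 16.2 ± 3.21 CPM in KO livers and 22.8 ± 3.06 CPM in control livers and did not pass (log2 −0.49, adjusted p = 0.0685). It was the only one of these 10 genes with enough counts to be tested, and DESeq2 and limma-voom called 0 of them. It passed as lower with scaling to library totals and without the filter on low counts.

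Heme synthesis outside red cells had genes that passed at some steps, and the steps were not tested against each other. Of 7 genes analysed that serve it in liver (Alas1, Alad, Uros, Urod, Cpox, Ppox and Fech), 3 were higher in KO livers and 0 were lower, with a median log2 value of 0.34. Alas1 (ENSMUSG00000032786, chr9:106233455-106248654, − strand), the gated first step, had 755, 187 and 712 CPM in KO livers, against 913, 290 and 704 CPM in control livers. The groups overlapped almost wholly, and liver 2 of each group was far below the others. The difference was −0.21 on the log2 scale (SE 0.53, adjusted p = 0.814), and its sign turned without KO liver 2 (0.21) or control liver 1 (0.16).

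Cpox (ENSMUSG00000022742, chr16:58670292-58717636, + strand), coproporphyrinogen oxidase of the mitochondrial intermembrane space, was the heme enzyme member that rose. It had 191, 297 and 178 CPM in KO livers, against 117, 93.6 and 144 CPM in control livers. Every KO liver exceeded every control liver, and KO liver 2, the lowest for Alas1, was the highest for Cpox. The difference was 1.88-fold (log2 0.91, SE 0.23, adjusted p = 0.0216), and it did not pass without control liver 1 (adjusted p = 0.059) or control liver 2 (adjusted p = 0.0735). The opposite-strand gene Gpr15 that overlaps Cpox had 0 to 3 counts in any liver, and 4930500F10Rik, which overlaps Alas1, had 0 to 2.

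Fech (ENSMUSG00000024588, chr18:64452914-64490251, − strand), ferrochelatase, which inserts iron in the last step, had 158, 156 and 154 CPM in KO livers, against 139, 118 and 141 CPM in control livers. KO livers lay above control livers without overlap and within a narrow range. The difference was small (log2 0.23, SE 0.11, adjusted p = 0.171) and did not pass. It was −0.02 (adjusted p = 0.91) with library totals, a scaling that moved the median of all genes by −0.25.

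The other enzymes of the chain had smaller differences than Cpox. Alad, which condenses 5-aminolevulinate to porphobilinogen, had 87.4, 86.1 and 94.6 CPM in KO livers, against 61.8, 52.1 and 74.1 CPM in control livers (log2 0.51, adjusted p = 0.0314). Uros, which closes the porphyrin ring, had 18.8, 22.5 and 26.9 CPM in KO livers, against 15.7, 11.1 and 13.5 CPM in control livers (log2 0.76, adjusted p = 0.0165). In both genes the groups did not overlap. Alad did not pass without KO liver 1, KO liver 3, control liver 1 or control liver 2, and neither gene passed with library totals. Urod (log2 0.34, adjusted p = 0.0577) and Ppox (log2 0.11, adjusted p = 0.73) did not pass. Urod passed as higher with DESeq2 (adjusted p = 0.0451) and with protein-coding genes only (adjusted p = 0.0457). The count of 3 higher genes became 1 with library totals and 1 without control liver 1 or control liver 2.

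Of 11 hepatocyte markers tested, 4 were higher and 0 were lower, with a median log2 value of 0.55, and their sum was 104361 to 143277 CPM in KO livers and 79547 to 94165 CPM in control livers. Ttr (transthyretin, log2 1.22, adjusted p = 0.0026), Apoc3 (0.86, adjusted p = 0.0145), Serpina1c (1.18, adjusted p = 0.0199) and Cps1 (1.11, adjusted p = 0.0346) were those that rose. The count was 2 without control liver 1, Serpina1c did not pass without control liver 1 or 3, and Cps1 kept its call without KO liver 3 or control liver 3 and lost it without any other liver and with library totals (adjusted p = 0.0528). None of the 11 was at 0, and their part in the heme enzyme result was not tested.

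**Figure D4:**
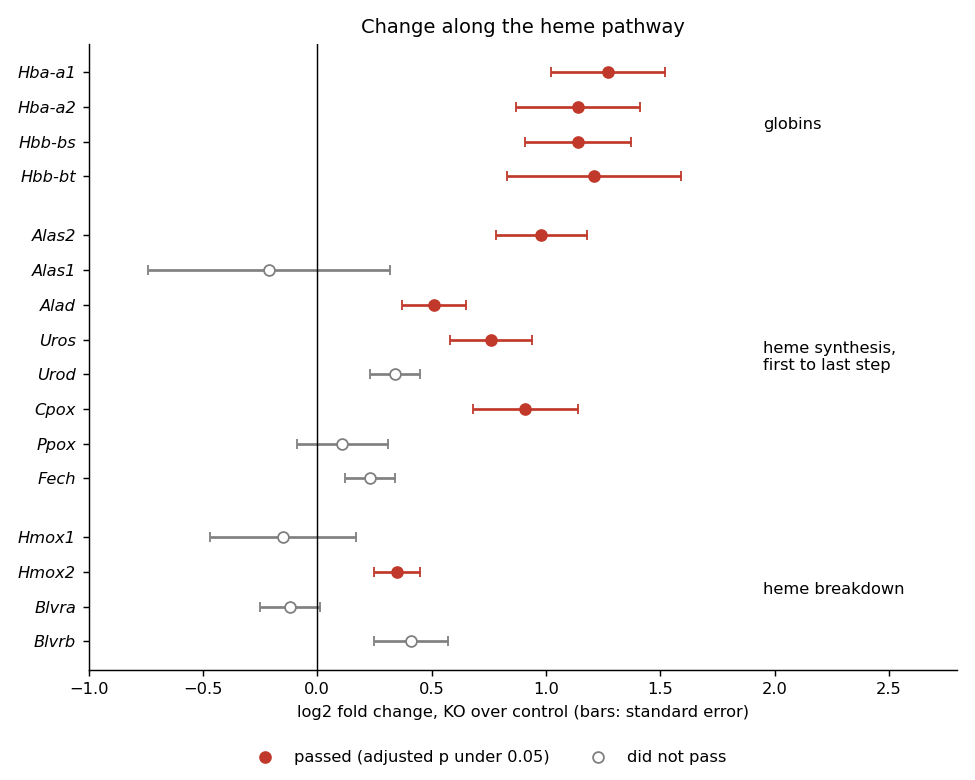
Points show the log2 value (KO over control) of the globins and the genes of heme synthesis and breakdown with bars of ± 1 SE, and filled points passed at an adjusted p under 0.05. Uros, Alad and Cpox are filled to the right of 0, and Alas1, with an SE of 0.53, has the widest bar among the heme synthesis enzymes.

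Heme breakdown showed no passed change in its inducible enzyme. Hmox1 (ENSMUSG00000005413, chr8:75093621-75100589, + strand), heme oxygenase 1, induced by heme and oxidants and high in macrophages that clear red cells, had 109, 130 and 49.6 CPM in KO livers, against 90.9, 133 and 96.6 CPM in control livers. The groups overlapped, and KO liver 3 was the lowest of the 6. The difference was −0.15 (log2, SE 0.32, adjusted p = 0.769), and its sign turned without KO liver 3 (0.17) or control liver 2 (0.06). The ratio of Alas1 to Hmox1 was 6.94, 1.44 and 14.4 in KO livers, against 10.0, 2.18 and 7.29 in control livers (log2 difference −0.05, exact permutation p = 0.9), and it ran from −0.78 to 0.88 as livers were left out.

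Blvrb (ENSMUSG00000040466, chr7:27447978-27466144, + strand), biliverdin reductase B, a flavin reductase also abundant in red cells, had 80.5, 106 and 117 CPM in KO livers, against 72.8, 69.2 and 87.2 CPM in control livers. KO liver 1 lay within the range of the control livers, and the other KO livers lay above it. The difference did not pass (log2 0.41, SE 0.16, adjusted p = 0.102), but it passed without KO liver 1 (log2 0.55, adjusted p = 0.0483). Hmox2, the constitutive heme oxygenase, had 54.6, 50.1 and 51.9 CPM in KO livers, against 41.6, 40.8 and 40.0 CPM in control livers, with no overlap (log2 0.35, adjusted p = 0.0326). That call was lost with library totals, with no filter, and without any 1 liver other than KO liver 2. Blvra, biliverdin reductase A, was at 12.4 ± 0.283 CPM in KO livers and 13.4 ± 1.63 CPM in control livers (adjusted p = 0.565).

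Markers of the cells that clear heme were lower in KO livers. Of 10 Kupffer cell markers, 9 were lower and 0 were higher (median log2 −1.01), with sums of 249 to 539 CPM in KO livers and 827 to 889 CPM in control livers. The scavenger receptor Marco (log2 −1.95, adjusted p = 0.00124), the complement gene C6 (−0.86, adjusted p = 0.00444), Spic, the factor of red-pulp and iron-handling macrophages (−1.34, adjusted p = 0.00893), and Adgre1 (F4/80, −1.37, adjusted p = 0.0163) fell. The Kupffer count was 4 without KO liver 1 or control liver 2, and 5 without control liver 1 or control liver 3, and Adgre1 did not pass without KO liver 1 or control liver 1. Of 16 markers of recruited myeloid cells, 15 were lower (median log2 −1.96), with sums of 73.5 to 167 CPM in KO livers and 386 to 490 CPM in control livers. Cx3cr1 (−2.74, adjusted p = 0.000605), Gpnmb (−3.80, adjusted p = 0.001), Ms4a6c (−1.95, adjusted p = 0.00142) and Cd53 (−1.51, adjusted p = 0.00228) were the 4 with the smallest p. None of these markers was at 0 in all livers, and their part in the Hmox1 values was not tested.

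Of 8 mitochondrial transport and assembly genes, 2 were higher and 0 were lower (median log2 0.39): Pgrmc1, a heme-binding partner of ferrochelatase, at 1116 ± 71.9 CPM in KO livers and 799.6 ± 42.2 CPM in control livers (adjusted p = 0.0278), and Fam210b, needed for heme synthesis in maturing red cells, at 122 ± 29.1 CPM in KO livers and 82.2 ± 7.20 CPM in control livers (adjusted p = 0.0418). That count was 0 with library totals and without KO liver 3 or any 1 control liver, and 1 without KO liver 1 or KO liver 2. Of 6 genes of heme transport between cells and compartments, 2 were higher and 1 was lower (median log2 0.29). Hebp1, a cytosolic heme-binding protein, had 174, 164 and 197 CPM in KO livers, against 85.4, 86.5 and 103 CPM in control livers, without overlap (log2 0.96, SE 0.13, adjusted p = 0.00176). Slc46a1, a folate transporter that also takes up heme, was at 52.1 ± 4.08 CPM in KO livers and 33.4 ± 4.82 CPM in control livers (adjusted p = 0.0116), and did not pass with library totals (adjusted p = 0.0708). Slc48a1, which exports heme from the phagolysosome of macrophages, was at 73.0 ± 14.1 CPM in KO livers and 111 ± 13.6 CPM in control livers (adjusted p = 0.0272). That lower call was lost without KO liver 1, KO liver 2, control liver 2 or control liver 3.

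The plasma proteins and receptors that bind free hemoglobin and heme did not pass (0 of 5 with edgeR, median log2 −0.34; 1 higher and 2 lower at an unadjusted p under 0.05; DESeq2: 1 higher and 1 lower; limma-voom: 1 lower). Hpx, hemopexin, which binds heme in plasma, had 4371, 3401 and 5416 CPM in KO livers, against 7414, 5799 and 7568 CPM in control livers, without overlap (log2 −0.66, adjusted p = 0.0589). Cd163, the macrophage receptor for haptoglobin-bound hemoglobin, was at 30.9 ± 0.678 CPM in KO livers and 39.2 ± 4.72 CPM in control livers (log2 −0.34, adjusted p = 0.0663). Without KO liver 3, Hpx passed as lower (log2 −0.83, adjusted p = 0.0344), and with library totals both did (adjusted p = 0.0157 for Hpx and 0.0117 for Cd163). Hpx also passed as lower with DESeq2 (adjusted p = 0.00644), limma-voom (adjusted p = 0.0444) and no filter (adjusted p = 0.0157).

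Some genes known to act on Alas1 and Hmox1 passed while those enzymes did not, at a share near the 25.0% called over all tested genes. Of 10 genes that act on Alas1, 2 were higher and 1 was lower in KO livers (median log2 0.12). Nr1i3 (CAR), a nuclear receptor that drives Alas1 and P450 genes, had 57.7, 71.7 and 52.4 CPM in KO livers, against 11.6, 12.4 and 16.6 CPM in control livers (log2 2.16, SE 0.18, adjusted p = 0.000414). Nr1i2 (PXR), a related receptor, was at 108 ± 18.4 CPM in KO livers and 77.1 ± 5.95 CPM in control livers (log2 0.49, adjusted p = 0.0372), and did not pass with library totals (log2 0.24, adjusted p = 0.247), without KO liver 1 or without any 1 control liver. Lonp1, the mitochondrial protease that degrades the ALAS1 protein, was at 227 ± 25.7 CPM in KO livers and 448 ± 23.8 CPM in control livers (log2 −0.98, adjusted p = 0.00174).

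Of 7 genes that act on Hmox1, 0 were higher and 2 were lower (median log2 0.01; 1 higher at an unadjusted p under 0.05, and 0 with DESeq2 and limma-voom). Mafk and Maff, small Maf proteins that pair with NRF2 and BACH1 on DNA, were at 31.3 ± 4.06 and 10.5 ± 4.28 CPM in KO livers, against 53.6 ± 3.21 and 27.2 ± 8.05 CPM in control livers (adjusted p = 0.0041 and 0.0141). Nfe2l2 (NRF2) itself had a log2 value of 0.01 and the heme-sensing repressor Bach1 one of 0.02, and neither passed. Maff did not pass without control liver 2. Of 8 other NRF2 target genes, 1 was higher, Gclm (log2 0.60, adjusted p = 0.00751; 0.0526 with library totals), and 2 were lower, the cystine transporter Slc7a11 (log2 −5.20, adjusted p = 0.000518) and G6pdx (log2 −0.88, adjusted p = 0.0176), with a median of 0.09. G6pdx did not pass without KO liver 1 or control liver 2, and 2 of the 8 were higher without control liver 2.

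Among 11 genes for cytochrome P450 enzymes, which take up most heme of hepatocytes, and for their electron donors Por and Cyb5a, 8 were higher and 0 were lower (median log2 1.76). Of the donors, Cyb5a rose (log2 0.77, adjusted p = 0.00478) and Por did not pass (log2 0.23, adjusted p = 0.603). Cyp2b13 (log2 4.09, adjusted p = 0.000185), Cyp2c37 (3.13, adjusted p = 0.000211), Cyp2b9 (1.76, adjusted p = 0.00256) and the ethanol-oxidising Cyp2e1 (2.25, adjusted p = 0.00323) had the smallest p, and these families hold close copies whose reads may be shared. Of 14 iron genes, 4 were higher and 2 were lower (median log2 0.21). The iron hormone hepcidin, Hamp, was at 59.4 ± 24.4 CPM in KO livers and 736 ± 499 CPM in control livers (log2 −3.63, adjusted p = 0.00215), and the iron transporter Slc11a2 also fell (−0.81, adjusted p = 0.00639). Hamp2, a near copy of Hamp, had the opposite sign, at 54.8 ± 21.3 CPM in KO livers and 11.2 ± 9.88 CPM in control livers (log2 2.31, adjusted p = 0.0271), and did not pass without KO liver 1, KO liver 2 or control liver 3; reads shared between the copies make both uncertain. The iron sensor Ireb2 (0.49, adjusted p = 0.0092) and Tfr2 (0.72, adjusted p = 0.0188) rose, but Tfr2 did not pass without control liver 2, and Ireb2 did not pass with library totals (adjusted p = 0.137). The higher count was 2 without KO liver 1, KO liver 2 or control liver 2.

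Stellate cell markers gave 2 lower of 8 (Pdgfrb, log2 −0.81, adjusted p = 0.0038, and Des, −0.67, adjusted p = 0.016; median −0.23), with sums of 468 to 512 CPM in KO livers and 486 to 585 CPM in control livers, and Des did not pass without KO liver 1, control liver 2 or control liver 3. Endothelial markers gave 0 of 10 by edgeR (2 lower at an unadjusted p under 0.05, 1 lower with DESeq2 and with limma-voom; median −0.13). Lyve1 (log2 −1.08, adjusted p = 0.0609) and Cdh5 (−0.44, adjusted p = 0.0816) had the smallest p, and Lyve1 was 1 of 2 that passed as lower without KO liver 2 (log2 −1.72, adjusted p = 0.00109). Among the listed genes named here, Ank1, Cx3cr1, Cygb, Des, G6pdx, Gclm, Hamp2, Hebp1, Hmox2, Mafk, Mb, Ms4a6c, Nr1i3, Ppox, Serpina1c, Slc11a2, Slc48a1 and Sptb overlap exons of a gene on the opposite strand, and Clec1b, Gclm and Gp1bb those of one on their own, so their counts are uncertain to that extent.

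The protein-coding genes whose pattern over the 6 livers lay nearest to 3 of these profiles were found by the mean absolute difference of centred log2 CPM, among 12106 candidates. Abca8a (0.13), Cacna1d (0.139) and Cmah (0.144) lay nearest to the globin sum, where the median candidate was at 0.643. Nme6 (0.209), Sema3b (0.246) and Gbp10 (0.279) lay nearest to Alas1, with a median of 0.772. Zfp13 (0.0873), Taf9b (0.117) and Zfp518b (0.125) lay nearest to Hmox1, with a median of 0.428. Abca8a had 47.3, 34.5 and 46.9 CPM in KO livers, against 26.3, 16.7 and 19.9 CPM in control livers. Its lowest liver, control liver 2, was also the lowest for the globins, a likeness that follows from how Abca8a was chosen.

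Per kilobase of exon, so that genes can be set against each other, the level in KO livers was 92.6 CPM for Hbb-bs, 89.3 for Alas1, 68.4 for Hba-a1, 55.0 for Hmox1, 36.4 for Blvrb, 33.3 for Cpox, 11.7 for Hba-a2, 11.5 for Hbb-bt, 11.3 for Fech and 3.56 for Alas2. In control livers the level per kilobase was 103 CPM for Alas1, 61.0 for Hmox1, 42.1 for Hbb-bs, 28.3 for Hba-a1, 27.5 for Blvrb, 17.7 for Cpox, 9.58 for Fech, 5.30 for Hba-a2, 4.93 for Hbb-bt and 1.80 for Alas2. Hbb-bs stood first in KO livers and below Alas1 and Hmox1 in control livers, and Alas2 stood last in both. The order of Hbb-bs and Alas1 in KO livers is not resolved, since Alas1 ran from 187 to 755 CPM there. The length was that of all annotated exons merged, 13838 bases for Fech, 6661 for Cpox, 6174 for Alas1 and 812 for Hba-a1. Exon sequence outside a gene's main transcript lowers this level, and globin reads fitting both copies may be missing, so the order is approximate.

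**Figure D5:**
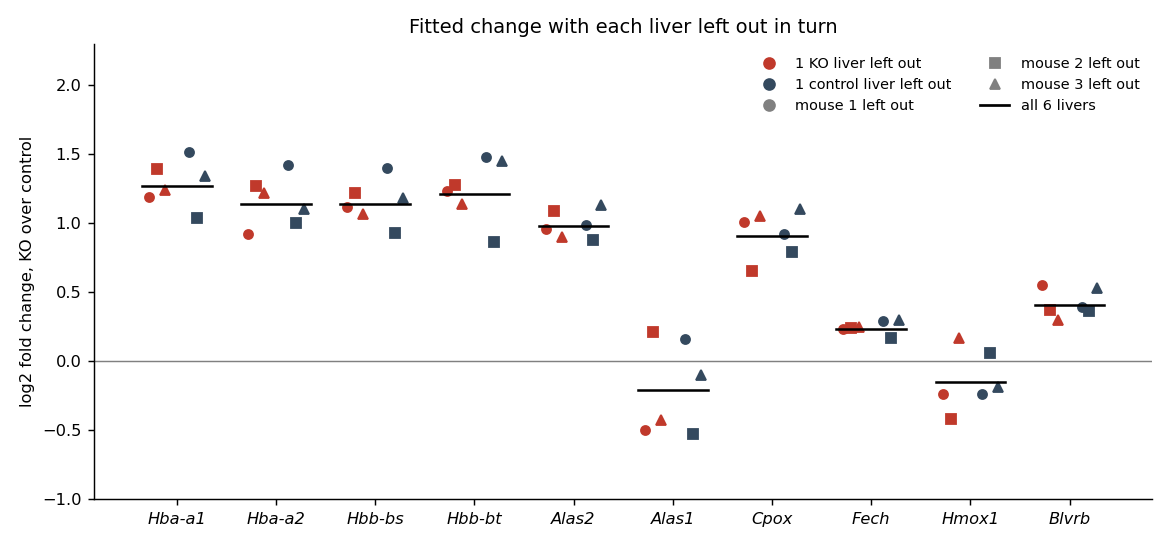
For each of the 10 genes the log2 value (KO over control) with all 6 livers is shown beside the values with each liver left out in turn. All values of the 5 red-cell genes, Cpox, Fech and Blvrb lie above 0, with a range of 0.88 to 1.13 for Alas2, while Alas1 runs from −0.53 to 0.21 and Hmox1 from −0.42 to 0.17.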

How the data were processed

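Whole-liver RNA of 6 mice was sequenced after poly-T selection and random-hexamer priming, per the labels' protocols. The table deposited by the authors holds raw counts of reads for each Ensembl gene and mouse. The submitters' processing notes name GRCm38.p6, featureCounts 1.5.0-p3, StringTie 1.3.3b and HISAT2 2.0.5, and give none of them a role. How counting treated strand and reads with several matches, and from which annotation release, is not given in the sources used here. This bears most on the paired globin genes.

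Identifiers were matched to GENCODE M21 (54495 of 54532 genes). Low genes were removed with filterByExpr, TMM factors set the library sizes for CPM and for the test, and edgeR 4.0.16 (R 4.3.3, limma 3.58.1) was fitted without covariates. Pair sums entered the same fit in place of the single copies. Alternatives in tool and scaling were DESeq2 1.42.0, limma-voom, RLE size factors and library totals. Alternatives in genes and samples were no filter, at least 50 counts in 3 livers, protein-coding genes, removal of the 20 most abundant genes, the mouse number as a block, and each liver left out. Thresholds of 0.01 and 0.1 were also tried. The steps were tested on simulated counts with 200 changed genes. There edgeR recovered 8.96% of 1.5-fold, 66.6% of 2-fold and 94.5% of 4-fold changes, so most 1.5-fold changes were missed in that setting. Of the simulated calls, 7.69% were false with edgeR, 17.8% with DESeq2 and 5.45% with limma-voom. In the livers 3684 genes passed, far more than the 200 changed in the simulation, which moves the adjusted threshold. The recovered and false shares therefore need not hold for the livers. Counts of same-group livers differed beyond sampling noise (chi-square per degree of freedom at least 26.9), so each liver counted as 1 sample. The limit of 3 counts covers counting error only.

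The members, the 21 gene lists (180 symbols, of which Ahsp and Tf were not matched) and the tests were chosen with earlier results of these data known, and the TATAA motif after the promoters were seen. The text names, for each list, at most 4 genes that passed, taken by p, and where no gene passed the first 2 by p. Some genes of these lists are not reported here. Nearest profiles were sought among protein-coding genes with a mean of at least 1 CPM. Urod, Ppox, Blvra, Nfe2l2, Bach1, Hamp2, Por, Cyb5a, Sptb, Bpgm, Tspan33 and genes at or near 0 counts complete a list and were chosen after their values were seen. Figures were drawn with matplotlib 3.10.9.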

Additional observations from a re-analysis of the deposited data

How the results depend on the processing

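The globin pair sums, Hba-a1, Hbb-bs and Alas2 kept their direction and their call at an adjusted p under 0.05 under every scaling, tool and filter tried and with any 1 liver left out. Of the 10 genes, 6 were higher, 3 at an adjusted p under 0.01, and 4 to 5 with a liver left out. Of the 5 red-cell genes all were higher, 3 at an adjusted p under 0.01, and 3 to 4 with a liver left out (3 without KO liver 1 or control liver 3). Of the heme enzymes 1 was higher, 0 at an adjusted p under 0.01, and 0 to 2 with a liver left out (2 without KO liver 1, 0 without control liver 1 or control liver 2). Over all gene lists, 29 higher calls became 18 with library totals and 13 at an adjusted p under 0.01, where lower calls numbered 20 in place of 37. Signs turned for Alas1 (−0.53 to 0.21) and Hmox1 (−0.42 to 0.17) with a liver left out, for Fech with library totals (−0.02), for Ppox (−0.03 to 0.30), Nfe2l2 (−0.03 to 0.07), Bach1 (−0.13 to 0.18), Por (−0.11 to 0.44) and Sptb (−0.07 to 0.58) with a liver left out, for the first 4 of these with library totals (−0.14, −0.25, −0.23 and −0.04), for Nfe2l2 with at least 50 counts in 3 livers (−0.01), and for the ratios Hbb-bs share (−0.04 to 0.01) and Alas1 to Hmox1 (−0.78 to 0.88) with a liver left out. The causes were not tested.

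Over all genes 3684 passed, 2296 without KO liver 1 and 2275 without control liver 2, where fewer livers were compared. With library totals the split of 1751 higher and 1933 lower became 904 higher and 3698 lower, as the median log2 value moved by −0.25. The mouse number was that of the sample titles. In the column headings of the counts, liver 1 has a different number in each group, so pairing by number is uncertain. Deviations of livers with the same mouse number correlated at −0.0271, 0.0441 and −0.0185, within the −0.0928 to 0.0942 of livers with different numbers. These values gave no sign of pairing, but with 3 livers a group they cannot exclude it. With the number as a block, 3086 genes passed, the heme enzymes had 0 calls (Cpox adjusted p = 0.0565), and the pair sums were 1.32 and 1.22. Of the other named genes, Hmox2, Pgrmc1, Fam210b, Slc48a1, Nr1i2, Tfr2 and Ank1 lost their calls with the block (adjusted p 0.0543 to 0.0842), and Cygb, Lyve1 and Cdh5 passed as lower. Ratios within these pairs gave an exact sign-flip p of 0.5 to 1, with 0.25 the smallest possible. Low counts limit most red-cell and platelet markers, and Hbb-bt rested on 28 to 182 counts per liver.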
